A study of Mus musculus with 6 samples.

Results

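A set of 34 genes that mark the epithelial state through cell junctions, cell polarity and epithelial gene regulation was followed in mammary gland RNA from mice labelled wild type or Elf5 KO (knockout). The genes were listed by name, without keratins or claudins, and all 34 had a probe set among the 18193 genes measured. Where a gene had several probe sets named for it alone, the one with the highest mean log2 signal over all arrays stood for the gene. RNA of 3 wild-type and 3 Elf5 KO glands was hybridised to Affymetrix arrays, 1 per labelled biological replicate. The Elf5 protein is a DNA-binding regulator of the ETS family that luminal progenitors need to form milk-producing alveoli. The sample labels place all glands at pregnancy day 17, while the design text of the series speaks of lactation day 1, so no stage is used here. The labels name neither the Elf5 allele, nor the promoter or cells in which it was deleted, nor the strain or age of the mice. Elf5 itself gave signals of 12011, 8044 and 7244 on wild-type arrays 1 to 3, against 5616, 4361 and 3128 on KO arrays 1 to 3. The groups were apart by -1.06 ± 0.32 on the log2 scale (adjusted p = 0.109 unpaired and 0.0151 paired), and the KO glands still gave signal. KO array 1 alone differed from the wild-type mean by -0.66.

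Epithelial cells are held together by adherens junctions and desmosomes, both built on cadherins that catenins, plakins and plakophilins tie to the cytoskeleton. Tight junctions seal the space between cells, and polarity complexes set the apical membrane apart from the basolateral one. In the secretory gland these structures keep milk components inside the alveolus. A group of transcription factors and splicing regulators keeps this gene programme on, and repressors of the Snail and Zeb families bind E-boxes in the promoters of several such genes.

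Upstream sequences were taken from RefSeq (GRCm38.p6), which gave one for 18 of the 34 genes. Those of the other 16 were not used here. The printed runs cover up to 250 bases before the annotated start, without any stretch that another transcript of the gene includes. The runs below, 5′ to 3′ on the strand of the gene, show an inhibitor (Spint1), a polarity gene (Crb3) and a sorting gene (Ap1m2) that were lower in every KO array, a surface marker with similar group means (Epcam), and a desmosomal gene with higher signals (Dsp). Capitals mark matches, on either strand, to the ETS letters CGGAAG or AGGAAG, the E-box CAGGTG or the Grainyhead-like letters AACNNGTT. No capitalised stretch here overlaps one of another motif.
Spint1, chr2:119237110-119237359, plus strand: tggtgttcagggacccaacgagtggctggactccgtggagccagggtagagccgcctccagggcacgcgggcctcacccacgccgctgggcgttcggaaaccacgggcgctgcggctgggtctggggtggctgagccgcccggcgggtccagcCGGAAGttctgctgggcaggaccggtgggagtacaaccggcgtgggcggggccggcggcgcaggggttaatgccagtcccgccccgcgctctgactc
Crb3, chr17:57061951-57062200, plus strand: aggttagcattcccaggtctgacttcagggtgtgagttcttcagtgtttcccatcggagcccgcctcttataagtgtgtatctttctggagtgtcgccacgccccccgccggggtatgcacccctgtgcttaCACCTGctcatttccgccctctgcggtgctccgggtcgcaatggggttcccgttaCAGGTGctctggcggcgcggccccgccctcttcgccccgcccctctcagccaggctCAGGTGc
Ap1m2, chr9:21312350-21312583, minus strand: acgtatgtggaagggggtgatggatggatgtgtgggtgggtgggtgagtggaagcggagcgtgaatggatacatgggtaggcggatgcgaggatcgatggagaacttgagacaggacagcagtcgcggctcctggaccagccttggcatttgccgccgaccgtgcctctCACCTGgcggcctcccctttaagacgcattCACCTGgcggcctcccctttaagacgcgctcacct
Epcam, chr17:87635729-87635978, plus strand: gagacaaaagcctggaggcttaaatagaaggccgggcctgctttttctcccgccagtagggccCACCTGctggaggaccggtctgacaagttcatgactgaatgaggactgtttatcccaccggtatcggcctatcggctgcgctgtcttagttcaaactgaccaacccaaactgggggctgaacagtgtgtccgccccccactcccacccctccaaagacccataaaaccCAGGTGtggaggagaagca
Dsp, chr13:38151044-38151293, plus strand: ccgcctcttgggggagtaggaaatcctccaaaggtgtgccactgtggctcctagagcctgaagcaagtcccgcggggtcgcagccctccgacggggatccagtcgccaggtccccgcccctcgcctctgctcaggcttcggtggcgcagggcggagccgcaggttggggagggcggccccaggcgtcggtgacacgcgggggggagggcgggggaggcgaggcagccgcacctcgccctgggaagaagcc
Crb3 held 3 E-box matches, Ap1m2 and Epcam 2 each, Spint1 held 1 CGGAAG match, and Dsp held no match to these letters. Counts over genes used the full 250 bases, with stretches that another transcript includes left in. Over these full windows, the E-box letters were found in 7 of the 18 genes (Ap1m2, Crb3, Epcam, F11r, Pard6b, Spint2 and Tjp3), against 17.1% of 27025 genes with a window. CGGAAG was found in 2 of 18 (Spint1 and Tjp1; 13.8% of all genes). AGGAAG was found in 3 of 18 (Ctnnd1, Marveld2 and Tjp3; 29.1% of all genes), and AACNNGTT in 1 of 18 (Cgn; 3.65% of all genes). A match is a string of letters and not a binding site.

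Array quality differed within the KO group. The Gapdh ratio, that is the 3′ control probe set over the 5′ one, a measure of RNA integrity, was 0.833 to 1.09 in wild type and 0.802, 3.89 and 13.6 in KO arrays 1, 2 and 3 (log2 difference 1.92, two-sided exact permutation p = 0.4; 3 against 3 arrays allow no p under 0.1). The Actb ratio ran from 1.20 to 2.04 in wild type and was 1.58, 1.87 and 21.0 in KO arrays 1, 2 and 3 (log2 difference 1.26, two-sided exact permutation p = 0.5), so by Actb only KO array 3 stood apart. KO array 1 alone among the KO arrays had a Gapdh ratio under 2, and its difference from the 3 wild-type arrays is given beside the main results as the KO array 1 difference. The part of RNA integrity in the differences was not tested. Values were compared as log2(signal + 16), which understates the change of dim genes, and each difference carries the moderated standard error (SE) that limma gave it (n = 3 per group). Adjusted p-values are Benjamini-Hochberg values over all 10916 genes that passed the filter on low signals.

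The genes differed in both directions. RNA came from the gland with all its cell types, so fewer cells of a type and less RNA per cell cannot be told apart in any result. With a threshold of 0.05, 0 of the 33 genes tested passed in limma's unpaired fit (adjusted p = 0.0939 for the lowest), where 1.24% of all genes tested passed (0.110% lower and 1.13% higher in the KO). At an unadjusted p under 0.05 stood 8 genes lower (8.48% of all genes tested) and 3 higher (13.4%). In limma's paired fit, which takes the shared replicate number as a block, 10 genes passed (12.2% of all genes tested): 6 genes fell (4.53% of all genes tested did) and 4 rose (7.70% of all genes tested did). The genes that fell were Spint1, Cd24a, Ap1m2, Crb3, Llgl2 and Ovol1, and those that rose were Cdh1, Ctnna1, Dsp and Pkp1. The median difference was -0.34 on the log2 scale, against 0.06 over all genes tested, and 21 of 33 genes had a lower KO mean, against 46.1% of all genes. Dsc2, the 34th gene, lay below the filter and was not tested.

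The 3 KO arrays lay wholly below the 3 wild-type arrays for 11 of 33 genes (27.3% of all genes were apart either way and 10.6% with the KO below), and wholly above for 2 (16.7% of all genes tested). KO array 1 alone lay below all 3 wild-type arrays for 20 genes (22.2% of all genes tested) and above them for 2 (30.3% of all genes tested). The KO array 1 difference was negative for 26 of 33 genes (46.3% of all genes tested), with a median of -0.39 (0.04 over all genes tested). Among the KO arrays, the signal fell with a rising Gapdh ratio for 7 of the 33 genes (24.8% of all genes) and rose with it for 7 (23.0% of all genes).

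**Figure D1:**
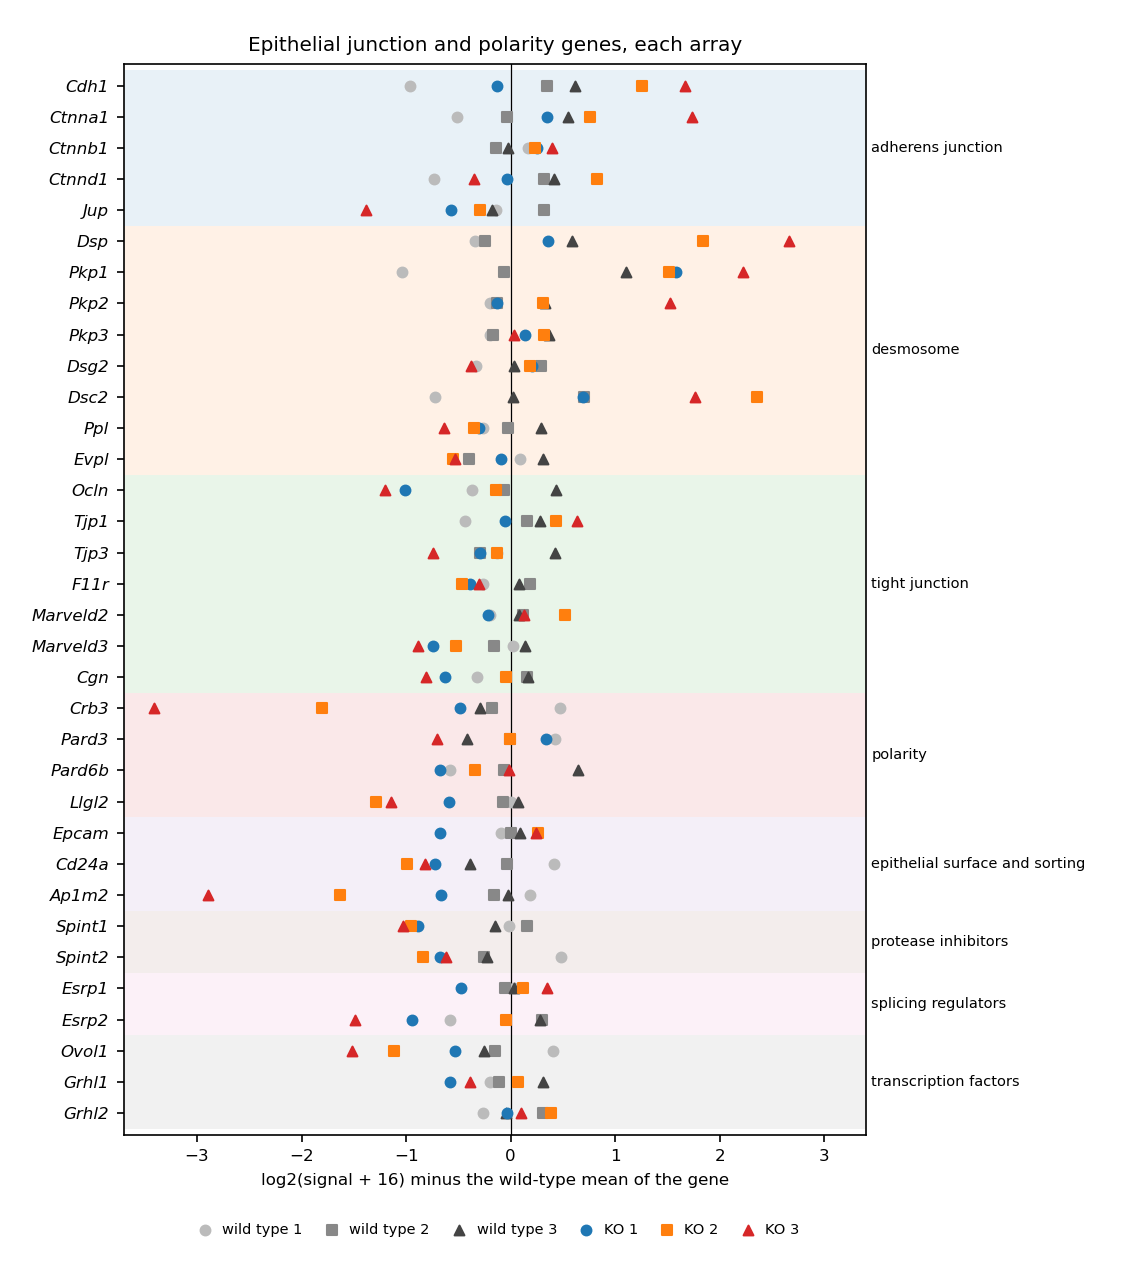
Each row is 1 of the 34 genes, grouped by role, and each point is 1 array, placed by log2(signal + 16) minus the gene's wild-type mean (grey: wild type, colours: KO). Protease inhibitors and Cd24a have all 3 KO arrays close together on the left, whereas Crb3 and Ap1m2 spread far to the left and Dsp and Cdh1 to the right in KO arrays 2 and 3.

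The inhibitors of membrane-anchored serine proteases were lower in the KO, and the KO arrays lay close together. Spint1, which encodes HAI-1, the main inhibitor of matriptase, read 1017, 1148 and 926 in the wild-type glands against 549, 521 and 495 in the KO glands. Each KO value was thus near the KO mean, which was 50.6% of the wild-type mean. The log2 difference was -0.96 ± 0.27 (SE; adjusted p = 0.0939 unpaired and 0.0429 paired). The KO array 1 difference was -0.88, close to the difference over all arrays. Spint2, which encodes the related inhibitor HAI-2, read 6166, 3692 and 3756 in the wild-type glands against 2747, 2463 and 2861 in the KO glands. It differed by -0.71 ± 0.30 (adjusted p = 0.203 unpaired and 0.0733 paired), and by -0.91 on a second probe set, with no overlap of the groups on either. Its KO array 1 difference was -0.68.

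The gene of their target protease was also lower. St14, which encodes matriptase, was taken from the list of other epithelial genes and read 2280, 2641 and 2783 in the wild-type glands against 1254, 1134 and 1060 in the KO glands. The groups did not overlap, and the difference was -1.15 ± 0.26 (adjusted p = 0.0627 unpaired and 0.0219 paired; KO array 1 difference -1.02). Prss8, the prostasin gene that acts with matriptase, was chosen after its values were seen. It read 644, 512 and 540 in the wild-type glands against 372, 304 and 158 in the KO glands, a difference of -1.05 ± 0.35 (adjusted p = 0.136 unpaired and 0.0530 paired; KO array 1 difference -0.58).

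**Figure D2:**
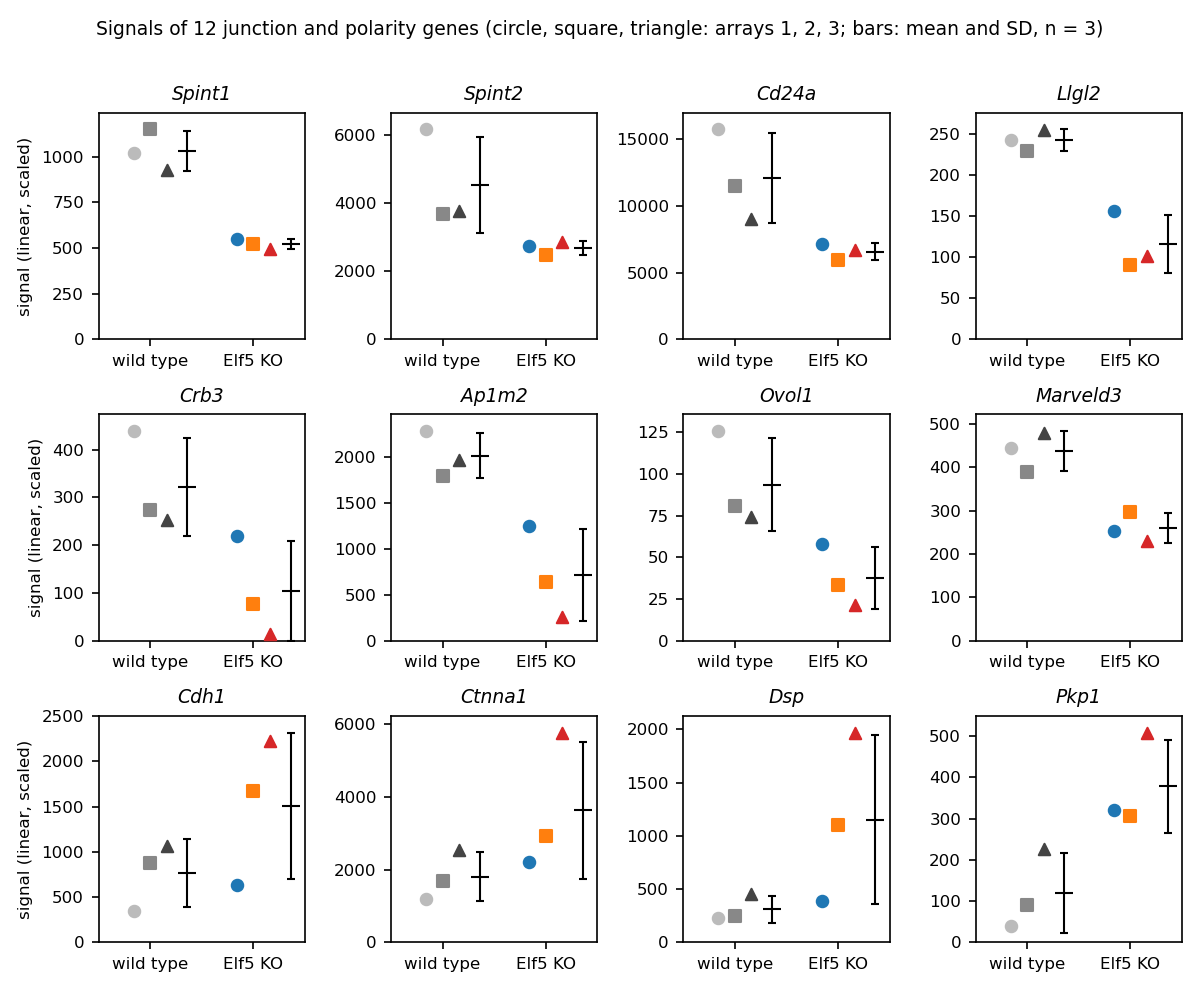
Linear signals of 12 genes in the 3 wild-type and 3 Elf5 KO arrays, with circle, square and triangle for arrays 1, 2 and 3 and the mean and SD of each group as a bar (n = 3). Spint1 sits at 926 to 1148 in wild type and 495 to 549 in the KO, while Dsp runs from 386 to 1968 within the KO.

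Among surface and sorting genes, Cd24a and Ap1m2 fell in the paired fit, and the Epcam groups overlapped. Cd24a, a glycosylphosphatidylinositol-anchored mucin-like protein used to sort mammary epithelium, read 15745, 11537 and 9032 in the wild-type glands against 7121, 5924 and 6695 in the KO glands. All KO values lay below all wild-type values, with a difference of -0.84 ± 0.28 (adjusted p = 0.137 unpaired and 0.0287 paired; KO array 1 difference -0.73). A second probe set, with 7154, 7647 and 6713 in the wild-type glands against 3467, 3723 and 1003 in the KO glands, also separated the groups, while on another, with a difference of -0.54, they overlapped. Ap1m2, the epithelial medium subunit of the AP-1 clathrin adaptor that sorts cargo to the basolateral membrane, read 2277, 1793 and 1959 in the wild-type glands against 1251, 636 and 254 in the KO glands. The KO mean was 35.5% of the wild-type mean, and the difference was -1.73 ± 0.49 (adjusted p = 0.0959 unpaired and 0.0254 paired). KO array 1 differed by only -0.67, and the lower arrays were those with higher Gapdh ratios. Ap1m1, the subunit found in most cells and also chosen after its values were seen, differed by -0.03 ± 0.30. Epcam, an adhesion molecule of simple epithelia, read 2869, 3067 and 3271 in the wild-type glands against 1910, 3670 and 3631 in the KO glands (-0.06 ± 0.32). Only KO array 1 was below wild type there, with a difference of -0.68. A dimmer Epcam probe set differed by -0.55, with overlap, and by -1.05 in KO array 1.

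All 4 polarity genes had a lower KO mean. Crb3, the epithelial Crumbs protein of the apical membrane, read 439, 273 and 252 in the wild-type glands against 219, 77.5 and 14.8 in the KO glands. The groups did not overlap, but the KO values spread widely. The difference was -1.90 ± 0.62 (adjusted p = 0.131 unpaired and 0.0237 paired), and the KO array 1 difference was -0.48. The 2 further Crb3 probe sets, at -1.46 and -0.74, also had every KO array below every wild-type array. Llgl2, a Lethal giant larvae protein that defines the basolateral side, read 244, 230 and 256 in the wild-type glands against 156, 90 and 101.4 in the KO glands. It differed by -1.01 ± 0.30 (adjusted p = 0.103 unpaired and 0.0467 paired; KO array 1 difference -0.59). Pard6b and Pard3, scaffolds of the Par complex, differed by -0.34 ± 0.37 and -0.12 ± 0.36, with overlapping groups for both and KO array 1 differences of -0.67 and 0.34.

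Of the 5 adherens junction genes 4 had a higher KO mean, and 2 rose in the paired fit. Cdh1, which encodes E-cadherin, read 347, 882 and 1066 in the wild-type glands against 631, 1675 and 2221 in the KO glands. KO array 1 lay within the wild-type range and only KO arrays 2 and 3 above it. Cdh1 differed by 0.93 ± 0.53 (adjusted p = 0.326 unpaired and 0.0422 paired), but the KO array 1 difference was -0.13. Ctnna1, the alpha-catenin that links the complex to actin, read 1202, 1681 and 2533 in the wild-type glands against 2202, 2935 and 5758 in the KO glands. Its groups overlapped on this probe set but not on a second one of similar brightness (0.95 ± 0.41 and 0.85; adjusted p = 0.220 unpaired and 0.0301 paired; KO array 1 difference 0.35). A dimmer Ctnna1 probe set differed by 0.76, with overlap, but by -0.75 in KO array 1. Ctnnb1, or beta-catenin, read 4135 to 5091 in the wild-type glands against 5326 to 5996 in the KO glands. These groups were apart by a small amount (0.29 ± 0.25, adjusted p = 0.505), and dimmer probe sets differed by -0.03 and -1.16. The p120 catenin gene Ctnnd1 differed by 0.15 ± 0.42, with -1.15 for a dimmer probe set. Jup, the plakoglobin shared by adherens junctions and desmosomes, was lower in all 3 KO arrays (464 to 661 against 192 to 426; -0.75 ± 0.35, adjusted p = 0.245, KO array 1 difference -0.57).

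Desmosome genes were split. Pkp1, a plakophilin that clusters desmosomal cadherins, read 38.7, 91.8 and 227 in the wild-type glands against 321, 306 and 508 in the KO glands. Every KO value lay above every wild-type value, and the difference was 1.77 ± 0.50 (adjusted p = 0.0939 unpaired and 0.0182 paired). The KO array 1 difference was 1.58, close to the difference over all arrays. Dsp, or desmoplakin, which ties desmosomes to keratin filaments, read 231, 249 and 455 in the wild-type glands against 386, 1106 and 1968 in the KO glands. KO array 1 was inside the wild-type range, and the signal followed the Gapdh ratio among the KO arrays. Dsp differed by 1.62 ± 0.54 (adjusted p = 0.136 unpaired and 0.0228 paired), with a KO array 1 difference of 0.36. A second Dsp probe set read 32, 221 and 205 in the wild-type glands against 210, 762 and 2732 in the KO glands. Dsc2, a desmocollin, read 3.1, 35.5 and 16.1 in the wild-type glands against 34.9, 146 and 91.2 in the KO glands, all dim values and not tested.

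The remaining desmosome genes differed less. Pkp2 read 338 to 495 in the wild-type glands against 354, 489 and 1150 in the KO glands (0.57 ± 0.43, KO array 1 difference -0.13), and 2 dimmer probe sets gave -0.59 and -0.10. Pkp3 differed by 0.16 ± 0.29, and the desmosomal cadherin gene Dsg2 by 0.01 ± 0.31. Other Dsg2 probe sets above the filter gave 0.07, -1.20 and -1.05. The plakins Ppl and Evpl, which tie desmosomes to the cornified envelope in skin and are found in other epithelia, differed by -0.43 ± 0.29 and -0.39 ± 0.31 (KO array 1 differences -0.30 and -0.10). Only for Ppl did the groups not overlap (133 to 204 in wild type, 99.9 to 130 in the KO).

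**Figure D3:**
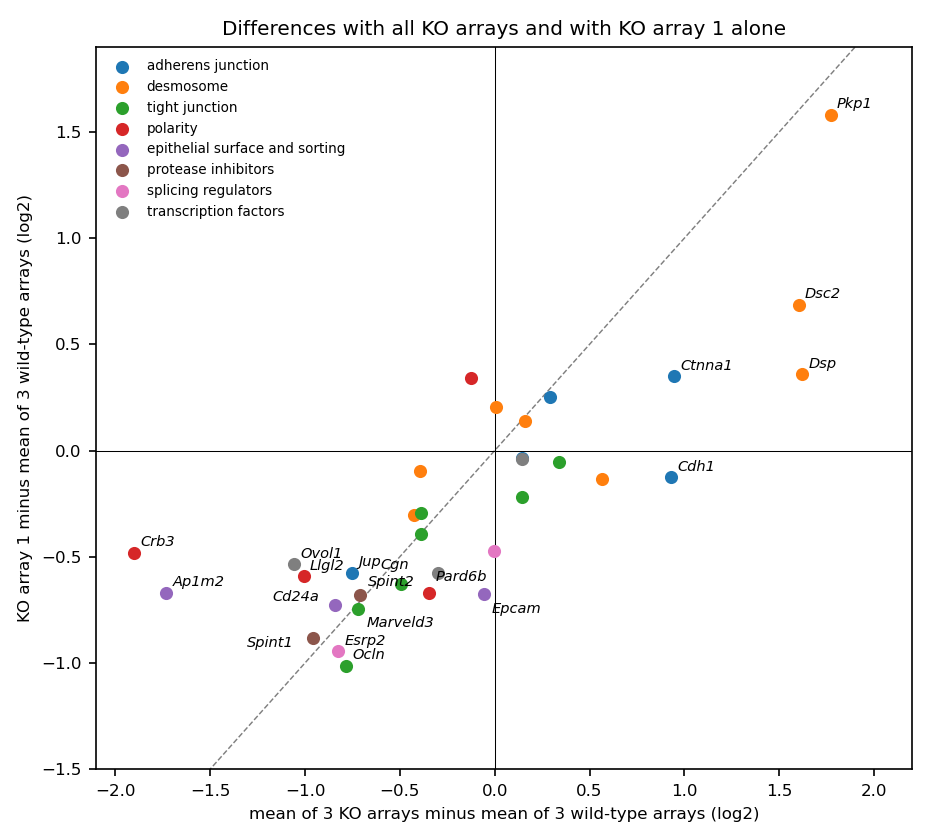
Each point is 1 of the 34 genes, with the difference over all 3 KO arrays on the horizontal axis and that of KO array 1, the KO array with a Gapdh ratio of 0.802, on the vertical axis, both against the 3 wild-type arrays on the log2 scale and with the dashed line where they are equal. Spint1, Cd24a, Spint2 and Marveld3 lie near the line, whereas Crb3, Ap1m2, Dsp and Cdh1 lie far from it.

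Of the 7 tight junction genes 5 had a lower KO mean and none passed in either fit. In KO array 1, 6 were below all wild-type arrays (22.2% of all genes tested). For Tjp3 (229.6 against a lowest wild-type signal of 229.7) and Marveld2 (127.5 against 129.5) the gap was very small. Marveld3, a transmembrane protein of tight junctions, read 445, 390 and 480 in the wild-type glands against 254, 298 and 229 in the KO glands, with no overlap. It differed by -0.72 ± 0.28 (adjusted p = 0.179 unpaired and 0.112 paired), and by -0.74 in KO array 1. A second, dimmer Marveld3 probe set gave -0.69 with overlap, and only -0.21 in KO array 1. F11r, or JAM-A, an adhesion molecule of the junction, read 949 to 1303 in the wild-type glands against 822 to 925 in the KO glands (-0.39 ± 0.28, adjusted p = 0.424). Ocln, or occludin, read 263, 328 and 470 in the wild-type glands against 162, 311 and 141 in the KO glands. The groups overlapped through KO array 2, the difference was -0.78 ± 0.37 (adjusted p = 0.248, KO array 1 difference -1.01), and a dimmer probe set gave 0.02. The scaffold genes Cgn and Tjp3 differed by -0.49 ± 0.32 and -0.39 ± 0.32 (KO array 1 differences -0.63 and -0.29). Tjp1, or ZO-1, differed by 0.34 ± 0.32 and Marveld2, or tricellulin, by 0.14 ± 0.30, with overlapping groups and KO array 1 differences of -0.06 and -0.22.

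Regulators of the epithelial programme differed among themselves. Ovol1, a zinc finger repressor that favours epithelial differentiation, was dim and read 126, 80.9 and 74.2 in the wild-type glands against 58.1, 33.5 and 21.5 in the KO glands. Its groups did not overlap, and it differed by -1.06 ± 0.34 (adjusted p = 0.129 unpaired and 0.0347 paired; KO array 1 difference -0.54). The Grainyhead-like factor Grhl2, an activator of Cdh1 and other junction genes, read 258 to 394 in the wild-type glands against 305 to 414 in the KO glands (0.15 ± 0.30, adjusted p = 0.795). A dimmer Grhl2 probe set gave the opposite picture, with 77.9, 153 and 77.5 in the wild-type glands against 57.2, 42.8 and 19.7 in the KO glands (-1.09, no overlap), so these arrays do not settle the direction of Grhl2. Grhl1 differed by -0.30 ± 0.31 (KO array 1 difference -0.58). The epithelial splicing regulators Esrp1 and Esrp2, which set epithelial isoforms of receptors and adhesion proteins, had differences of -0.00 ± 0.30 and -0.83 ± 0.42 (adjusted p = 0.996 and 0.276). Esrp1 read 1141, 1074 and 1143 in the wild-type glands against 801, 1213 and 1429 in the KO glands, so KO array 1 lay below all wild-type arrays (difference -0.47) and the other KO arrays above them. Esrp2 read 330, 621 and 611 in the wild-type glands against 253, 486 and 168 in the KO glands, with overlap and a KO array 1 difference of -0.94.

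Several genes had probe sets that did not agree in direction. Among 16 genes with more than 1 probe set above the filter, 14 of the 23 further probe sets had the sign of the brightest one and 9 had the opposite sign. Crb3, Cd24a, Spint2, Marveld3, Pard6b, Epcam, Esrp2 and Pard3 were lower on every such probe set, and Ctnna1 and Dsp higher. The catenins Ctnnb1 and Ctnnd1, and Pkp2, Dsg2, Ocln and Grhl2, had probe sets on both sides. Where the probe sets lie along their transcripts was not used here.

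**Figure D4:**
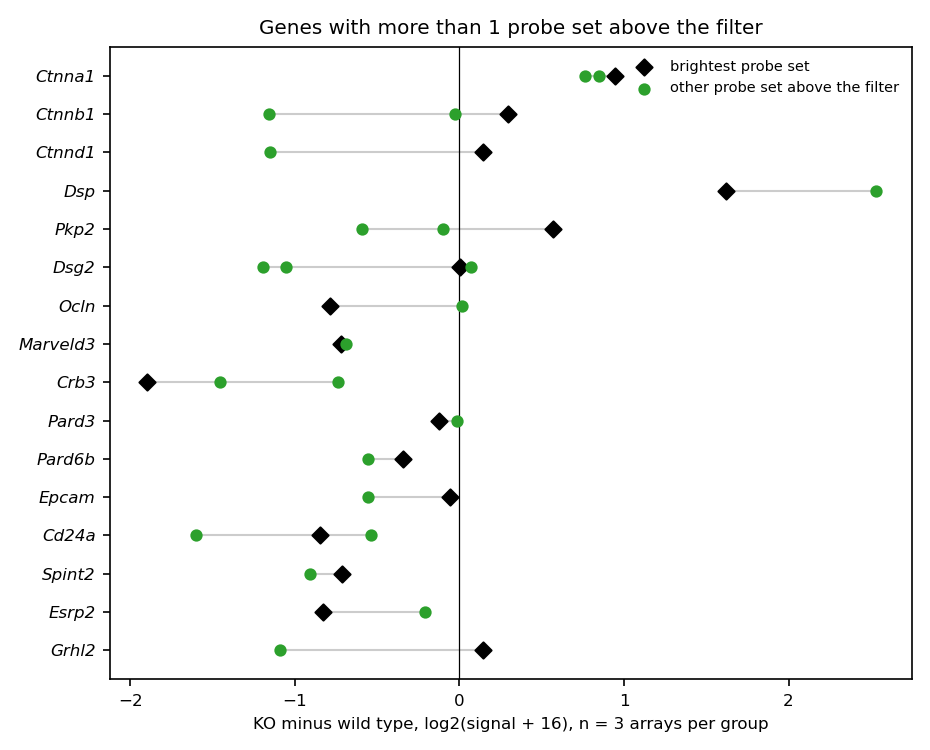
Log2 difference (KO minus wild type, n = 3 arrays per group) for each probe set above the filter, for the 16 genes that have more than 1, with black diamonds for the brightest probe set and green circles for the others. The 3 Crb3 probe sets lie between -1.90 and -0.74, while the Grhl2 probe sets lie at 0.15 and -1.09.

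Related junction and polarity genes outside the set were listed by name as well, along with other epithelial regulators and trafficking genes. Of these lists together, 98 genes were tested. Their median difference was -0.02 (0.06 over all genes tested). In the unpaired fit 0 passed (1.24% of all genes tested), and 29 had an unadjusted p under 0.05 (2384 of all 10916 genes). In the paired fit 12 fell (4.53% of all genes tested did) and 7 rose (7.70% did). The same shares of all genes apply to the counts of each related list that follows. Of 6 gap junction genes 3 fell and 1 rose in the paired fit. Gjb6 and Gjb2, connexins of the secretory epithelium, differed by -2.04 ± 0.45 and -1.73 ± 0.48, and Gja1, the connexin of myoepithelial and many stromal cells, by 1.94 ± 0.46 (adjusted p = 0.0121 in the paired fit). Their KO array 1 differences were -1.60, -1.03 and 1.33. Of 16 other adherens genes 2 fell and 2 rose in the paired fit. The cell adhesion molecule Nectin1 differed by -1.84 ± 0.46, the armadillo protein Pkp4 by 1.61 ± 0.47 and Lima1, which binds actin, by 1.68 ± 0.51. All 3 were smaller in KO array 1, at -0.92, 0.60 and 0.71. Of 21 other tight junction genes 1 fell and 2 rose in the paired fit, with Epb41l4b at -1.13 ± 0.30, Jam2 at 1.00 ± 0.29 and the scaffold Mpdz at 1.34 ± 0.40. Their KO array 1 differences were -1.03, 0.62 and 0.41.

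Of 20 other polarity genes 13 had a lower mean and 1 fell in the paired fit, the recycling-endosome gene Rab11fip1 (-1.05 ± 0.32, KO array 1 difference -0.60). The scaffold Scrib and the kinase Stk11 differed by -0.74 ± 0.31 and -0.77 ± 0.34, and by -0.23 and -0.46 in KO array 1. Of 7 hemidesmosome genes none passed in either fit, with the integrins Itga6 and Itgb4 at -0.76 ± 0.37 and -0.46 ± 0.52 and the tetraspanin Cd151 at 0.42 ± 0.33 (KO array 1 differences -1.34, -0.32 and 0.39). The 2 tested genes of the desmosome and envelope list, Cdsn and Perp, differed by -1.07 ± 0.46 and 0.29 ± 0.40 (KO array 1 differences -0.18 and -0.47). Of 27 other epithelial regulators and trafficking genes 5 fell and 2 rose in the paired fit. Besides St14 these included the microtubule-associated protein Map7 (-1.18 ± 0.32, KO array 1 difference -0.96) and the transcription factor Klf4 (1.34 ± 0.32, KO array 1 difference 1.10).

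Markers of other cells in the gland differed between the groups too. Of all genes tested, 0.110% fell and 1.13% rose in the unpaired fit, and 4.53% fell and 7.70% rose in the paired one. At an unadjusted p under 0.05, 8.48% of all genes tested were lower and 13.4% higher. All 11 fibroblast markers were higher in the KO mean and 4 of them rose in the unpaired fit and 8 in the paired one, among them Fap (1.96 ± 0.32, adjusted p = 0.0356), Col5a2 (1.65 ± 0.28) and Dpt (1.81 ± 0.34). Their summed signal was 12755 to 19994 in wild type and 25885 to 38507 in the KO. All 7 macrophage markers tested had a higher mean and 2 rose in the unpaired fit (4 in the paired one), Cd163 (1.93 ± 0.30) and Mrc1 (1.67 ± 0.29), with sums of 3265 to 4730 and 6761 to 11027, and 7 of 8 adipocyte markers were higher, of which 0 passed unpaired (3 at an unadjusted p under 0.05) and 3 rose in the paired fit (sums of 19193 to 21811 and 24782 to 36822). Of 12 endothelial markers 7 were higher and Vwf rose in both fits (1.54 ± 0.31, sums of 2045 to 2271 and 2358 to 2852). Of the lymphocyte markers 6 of 7 were higher and 3 rose in the paired fit (sums of 684 to 969 and 1389 to 2928). Of the skeletal muscle markers 7 of 7 were higher and 4 rose in the paired fit (sums of 389 to 4561 and 1833 to 7960). Neither list had a call in the unpaired fit (4 and 1 genes at an unadjusted p under 0.05). The part of these cells in the differences of the junction genes was not tested.

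Epithelial markers differed in both directions. The luminal keratins Krt8 and Krt18 read 3150 to 4264 and 2717 to 3492 in wild type. In the KO they read 3297 to 6462 and 3144 to 5510. They differed by 0.27 ± 0.32 and 0.45 ± 0.30, and by -0.21 and 0.01 in KO array 1. The luminal list had 7 of 10 genes lower, 3 of which fell in the paired fit (Muc1, Lalba and Elf5, the knocked-out gene itself). Its sums were 45192 to 100870 in the wild-type glands against 34583 to 51063 in the KO glands. Most of each sum came from Elf5 and the milk protein genes Csn2, Wap and Lalba, so the sums do not measure luminal cells independently of these genes. When every array was centred on Krt8 and Krt18, which moves every gene by the same amount, 28 of the 33 junction genes (68.1% of all genes) were lower in the KO, with a median of -0.71 (-0.30 over all genes). The small positive differences of Ctnnb1, Ctnnd1, Dsg2, Grhl2, Marveld2, Pkp3 and Tjp1 are negative on that scale by construction. Spint1 then differed by -1.32, Spint2 by -1.07, Cdh1 by 0.57 and Pkp1 by 1.41. Both keratin signals rose with the Gapdh ratio among the KO arrays. The part of RNA integrity in the centred values was not tested. Of the 10 myoepithelial markers 6 were lower, 0 passed in the unpaired fit (1 at an unadjusted p under 0.05) and 1 rose in the paired one, Trp63 (1.25 ± 0.41; sums of 15486 to 21894 and 12700 to 18911). Of 8 keratinocyte markers, 5 lay below the filter (Krt1, Ivl, Flg, Dsc3 and Krtdap), and summed signals were 436 to 1313 in wild type and 345 to 794 in the KO. The 3 tested were Krt15 (-0.56 ± 0.67), Krt10 (0.46 ± 0.32) and Lor (-0.92 ± 0.38), and 0 passed in either fit (1 at an unadjusted p under 0.05). Of the erythroid and the Schwann cell and nerve markers, 1 of 1 and 2 of 3 genes tested had a higher mean. In the paired fit the erythroid gene rose. Of the Schwann cell and nerve list, S100b rose and Sox10 fell. Sox10 was much the brighter, with 2574 to 4362 in wild type and 808 to 2419 in the KO, against 26 to 37.7 in wild type for S100b. Which cells gave the Sox10 signal was not tested.

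**Figure D5:**
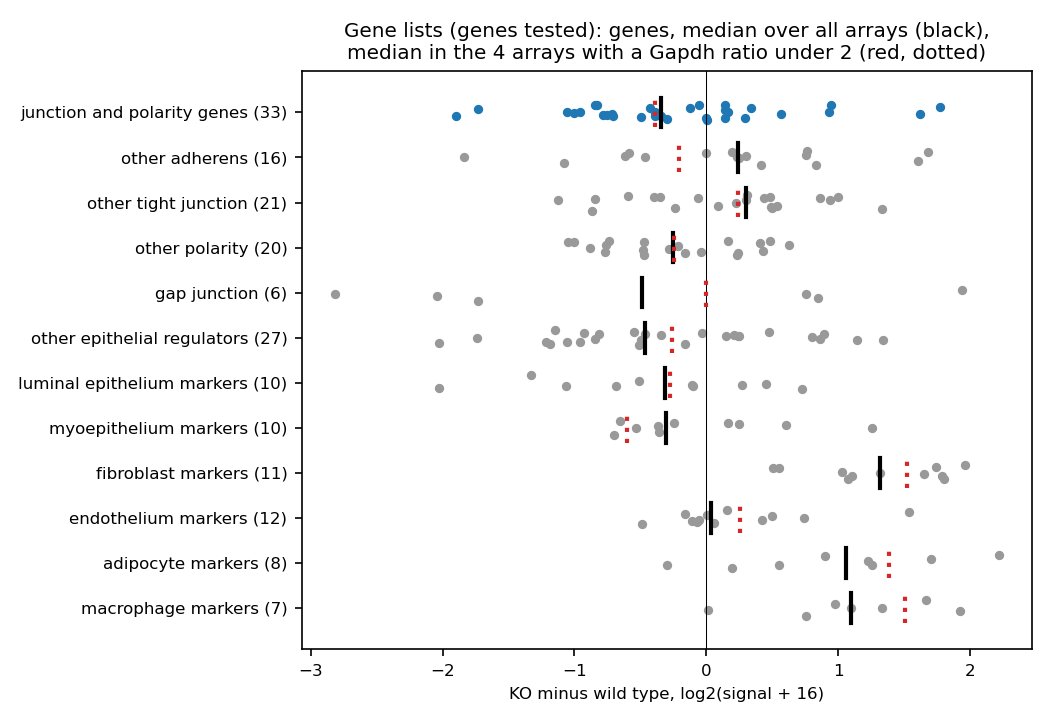
Points are the genes tested in 12 of the lists, placed by KO minus wild-type log2 difference, with the list's median over all arrays in black and the median in the 4 arrays with a Gapdh ratio under 2 in dotted red. The junction and polarity genes lie on both sides of 0 (median -0.34), whereas the 11 fibroblast markers all lie to the right (median 1.32).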

How the data were processed

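The table that the authors deposited holds linear signal intensities of 45101 probe sets, which per the submitters' processing notes involved MAS5 and affy, with no version, role or order given. No source used here gives the genome build or any other step. Every array had a mean of 150 after trimming 2% at each end. Probe sets named for 1 gene (34945) were used, control probe sets left out, and the probe set with the highest mean log2 signal kept per gene. Genes under the 40th percentile of that mean (a signal of about 43.8) were left out (7277 of 18193).

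Signals were tested as log2(signal + 16) with limma 3.58.1 in R 4.3.3 (intensity trend, Benjamini-Hochberg adjustment, threshold 0.05). Only the unpaired fit was tried on simulated data, with independent errors of equal spread in both groups. The simulation held no shared replicate effect and no arrays of lower RNA integrity, so it does not cover the paired fit. The precision is limited by the number of arrays. Replicate numbers come from the labels, which do not state that they pair animals. Deviations from group means correlated at 0.46, 0.34 and 0.29 across genes between arrays of the same number 1, 2 and 3, each over 0.1. A fit with this block (paired fit) therefore stands beside the results. Between arrays of different numbers the correlations ran from -0.44 to 0.15, and that of wild-type array 3 with KO array 2 was also over 0.1. Deviations cancel within a group, so these correlations are not independent. The block was chosen from these same data, which the paired p-values do not take into account. The labels call the samples biological replicates.

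The 34 genes, the other lists and the limit on the Gapdh ratio were chosen with earlier results of these data known. All 34 genes are named, with the 3 genes of smallest p from each related list, up to 3 called markers per cell type, Elf5, Krt8 and Krt18. Alternatives covered the pseudocount, filter, scaling, choice of probe set, trend, block, Gapdh ratio and each array left out.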

Additional observations from a re-analysis of the deposited data

How the results depend on the processing

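The median of the 33 genes tested stayed negative under all 19 alternatives. It was -0.71 with arrays centred on Krt8 and Krt18 and lay between -0.40 and -0.18 when each array was left out in turn. No gene of the set passed except in the paired fit with the replicate block (10 genes) and without KO array 1 (5 genes: Dsp rose, and Crb3, Llgl2, Ap1m2 and Ovol1 fell), so the range with each array left out was 0 to 5. Of all 10916 genes tested, 1335 passed in the paired fit and 1206 without KO array 1. The fit without KO array 1 keeps only the KO arrays whose Gapdh ratios were 3.89 and 13.6. Genes with groups apart numbered 13 with all arrays, 22 in the 4 arrays with a Gapdh ratio under 2 (52.6% of all genes), and 13 to 21 with each array left out (33.7% to 50.4% of all genes). With the Gapdh ratio as a covariate 2 genes had an unadjusted p under 0.05. An unadjusted p under 0.05 was reached by 11 genes of the set over all arrays (2384 of all 10916 genes). With all arrays, groups were apart for 27.3% of all genes. Over all genes, 135 passed (91.1% higher), against 85 with a pseudocount of 1, 56 without a filter, 13 with median centring, 69 with the mean of all probe sets, 0 with Krt8 and Krt18 centring, with the dimmest probe set, with the Gapdh covariate or in the 4 low-ratio arrays (1602, 2171, 1112 and 1013 at an unadjusted p under 0.05), 1335 in the paired fit (63.0% higher) and 0 to 1206 with each array left out.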
